A study of Mus musculus with 4 samples.

Results

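Antisense noncoding genes are annotated genes without a coding frame that lie on the opposite strand of another gene, most often a coding one. The set described here holds every gene that the deposited table types as antisense and that had at least 100 counts summed over the 4 libraries. It has 385 members of 2767 antisense genes and of 53715 genes in all. The other 2382 antisense genes had fewer counts, and 1409 of them had none. Members were chosen by gene type and summed count alone, so levels are a description, while the difference between genotypes was not used to choose. At the limit, Gm42902 was included with 100 counts and Gm12316 and Atad3aos with 101 each, and 4933429H19Rik, Gm16577 and Gm26626 were left out with 99 each.

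The series sequenced total RNA of CD4+CD8+ double-positive thymocytes, the stage at which developing T cells test their receptor, sorted from the thymus of C57BL/6 mice aged 6 to 8 weeks. There were 2 WT and 2 KO libraries. KO is LCKCre/+ Srsf1fl/fl, in which Cre recombinase under the T lineage Lck promoter deletes floxed Srsf1, a gene for an SR protein that binds exons in splicing, and WT is described only as wild type. No agent was given, and no label says that the 2 libraries of a group came from separate mice. The p-values therefore reflect variation among these libraries only, which may be technical.

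Antisense transcripts often start at or near the promoter of the gene on the other strand, or inside its body, and many are spliced poorly and degraded in the nucleus. A few, such as Airn and Kcnq1ot1, silence neighbouring imprinted genes in cis, and others act away from their locus or have no known role. Because sense and antisense genes occupy the same DNA, a read over both can be assigned to one only if its strand is known.

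RefSeq start windows (250 bases before to 50 bases after the start, GRCm38.p6) that are free of exons of coding genes are shown for 3 members called different between KO and WT: C130021I20Rik, which fell and has no opposite gene, Slain1os, which fell with its partner, and Galnt6os, which rose with its partner. Capitals mark the GC box GGGCGG or CCGCCC and the CCAAT box CCAAT or ATTGG, searched on both strands.
C130021I20Rik, chr2:33640943-33641242, plus strand: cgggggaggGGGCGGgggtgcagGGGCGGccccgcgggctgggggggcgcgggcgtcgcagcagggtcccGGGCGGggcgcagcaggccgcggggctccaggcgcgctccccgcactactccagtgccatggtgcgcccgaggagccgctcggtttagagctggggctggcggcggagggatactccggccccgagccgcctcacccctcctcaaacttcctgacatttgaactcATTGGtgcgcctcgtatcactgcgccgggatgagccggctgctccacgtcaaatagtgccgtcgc
Slain1os, chr14:103699383-103699682, minus strand: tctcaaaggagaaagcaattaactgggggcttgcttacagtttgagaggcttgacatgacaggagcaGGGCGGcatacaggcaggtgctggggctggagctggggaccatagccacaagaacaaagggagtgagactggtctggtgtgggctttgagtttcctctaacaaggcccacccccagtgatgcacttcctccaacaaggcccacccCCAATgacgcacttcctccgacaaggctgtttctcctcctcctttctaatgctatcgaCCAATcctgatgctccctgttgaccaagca
Galnt6os, chr15:100695482-100695781, plus strand: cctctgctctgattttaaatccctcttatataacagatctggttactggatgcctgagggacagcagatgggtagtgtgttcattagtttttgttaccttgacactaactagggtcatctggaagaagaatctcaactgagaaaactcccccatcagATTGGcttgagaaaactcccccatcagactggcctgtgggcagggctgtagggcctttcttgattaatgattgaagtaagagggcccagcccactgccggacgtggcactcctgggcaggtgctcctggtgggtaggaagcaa
The window of C130021I20Rik held 34 CpG dinucleotides, 3 GC boxes and 1 CCAAT box, and 92.2% of 32544 RefSeq windows held fewer CpG. That of Slain1os had 4 CpG, 1 GC box and 2 CCAAT boxes, and that of Galnt6os had 2 CpG and 1 CCAAT box. Fewer CpG than in the Slain1os window stood in 31.0% of windows. The median over all windows was 7 CpG, a GC box stood in 35.9% and a CCAAT box in 37.4%. TATAAA or TTTATA, which 13.6% of windows held, was in none of the 3. By symbol, 160 of the 385 members and 9 of the 23 called ones matched a RefSeq window. These matches describe letters and no more.

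The libraries held 35862730 to 37033180 counts, of which the members took 0.158 to 0.174%. The targeted gene matched the labels: Srsf1 had 4821 and 4485 counts in WT and 1839 and 1772 in KO, a log2 fold change of -1.39 (SE 0.09, edgeR adjusted p = 2.91e-06). Markers of double-positive thymocytes were all detected and summed to 7904 to 8266 CPM (counts scaled to library size with TMM factors) in WT and 11382 to 11612 in KO. B cell markers summed to 10.1 to 12.3 CPM in WT and 18.7 to 21.2 in KO, myeloid markers to 14.9 to 19.2 and 12.0 to 22.0, and thymic epithelial markers to 11.6 to 13.4 and 9.97 to 12.0 with Foxn1 and Krt5 at 0. Endothelial and fibroblast markers were the highest of the other lists, at 125 to 136 CPM in WT and 119 to 121 in KO, and dendritic markers (1.60 to 1.77 and 0.430 to 2.49) and erythroid markers (1.18 to 5.24 and 0.537 to 3.08) the lowest. Their part in the results was not tested, and in these bulk samples fewer cells of a type and less RNA per cell cannot be told apart.

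No source used here states whether counting used strand, and the files were checked for it. Of 481 genes of all types whose exon bases all lie under exons of the opposite strand, 1 had a count. The share with any count was 35.1% of 302 genes with at least 75% but not all of their bases covered, 64.6% of 1765 genes with 25 to 75%, 78.3% of 5907 genes with some but under 25%, and 41.0% of 43009 genes with none. Among antisense genes 1 of 72 fully covered ones had a count, and the share was 33.3, 60.0 and 57.8% in the same 3 ranges and 41.4% with no base covered. The shares thus do not rise steadily with less cover. Genes that lie wholly under exons of the other strand gave almost no counts, which is the pattern of counting without strand. Reads from an intron of the opposite gene, such as unspliced RNA, then fall on an antisense exon that lies there and cannot be told apart from antisense RNA.

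Most members were weakly expressed, and the median member had most of its exon bases in introns of opposite genes. The summed count had a median of 263 (100 to 23344), and the mean RPKM (counts scaled to gene length and library total, the authors' values) a median of 1.54 (0.0325 to 33.5). Gene length had a median of 1550 bases and the number of exon blocks a median of 3. The median member shared 10.8% of its exon bases with exons of the other strand, had 62.5% in opposite introns and 3.80% outside any opposite gene. An opposite gene overlapped 369 members, 16 had none, and for 357 the main partner (the gene with the largest overlap) was protein-coding. The partner had the higher mean RPKM in 307 of 354 members with a tested partner, and the median member stood at 11.8% of its partner's level.

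The members with the highest mean RPKM lay opposite genes of varied roles. Gm44686 led with 33.5 RPKM, Gm17201, opposite Ankrd52, had 22.5, and Gm28529, opposite the chromatin gene Epc1, had 20.0. Gm26982 followed with 16.7, Gm48719, which lies within the T cell receptor signalling gene Cd3e, with 16.6, and Tug1 with 16.4. Gm15247, Phf2os1, Gt(ROSA)26Sor and Gm47827 lay between 13.9 and 15.5. The libraries of neighbours in this order overlapped: Gm26982 ranged from 12.1 to 22.0 RPKM and Tug1 from 14.2 to 18.4. Per unshared exon base the order changes, with Gm17201 at 55.5 and Gm44686 at 44.2 RPKM.

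**Figure D1:**
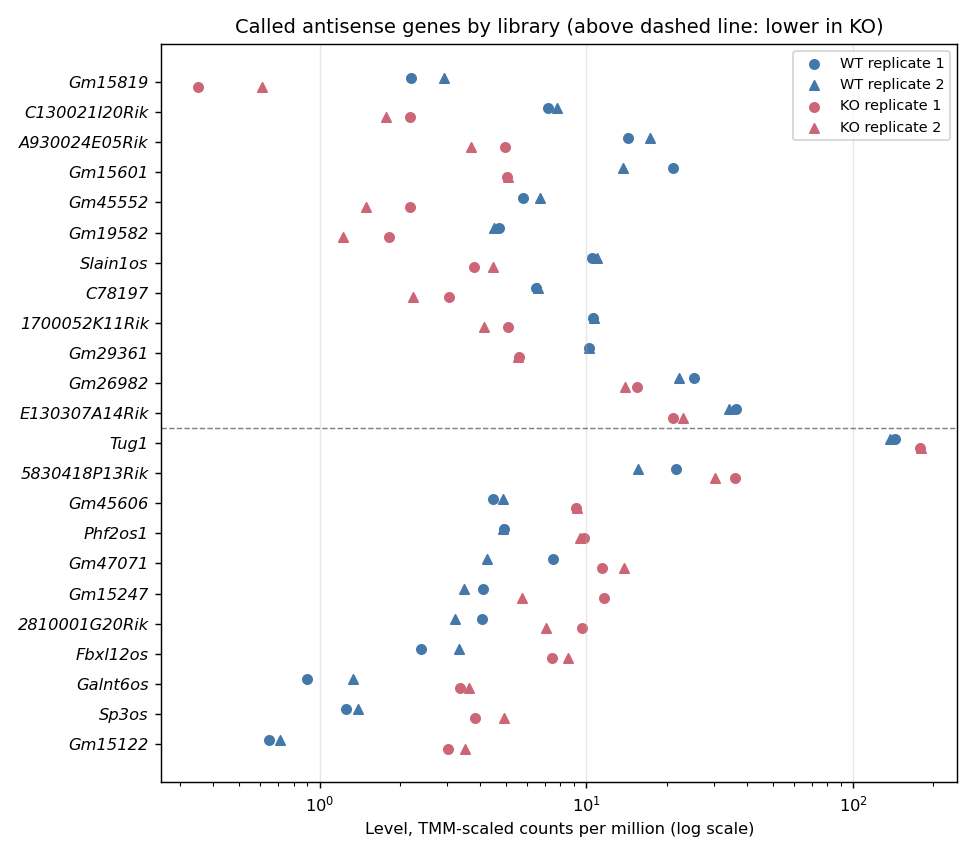
TMM-scaled CPM of the called members in each library, on a log axis, with a point for each of the 2 WT and 2 KO libraries. The KO points of all 23 genes lie on one side of the WT points, 11 above and 12 below. These genes were chosen by a test on the same libraries, so the separation adds no support. Of all genes tested, 55.9% had no overlap.

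In KO, 11 members rose and 12 fell at an edgeR adjusted p under 0.05 over 16588 genes, which is 5.97% of the members against 14.5% of all genes tested (6.63% higher, 7.89% lower). Within ranges of summed counts the shares lay closer. Of the 334 members with 100 to 1000 counts 3.29% were called, beside 3.94% of all tested genes in that range. Of the 51 members above 1000 counts it was 23.5%, beside 24.1%. The median sum was 229 counts for members and 283 for all tested genes in the lower range. In the upper range it was 1630 and 7158, so depth is not matched there. The median log2 fold change was -0.04 (quartiles -0.58 and 0.43), against 0.00 for all genes tested. KO was above WT in every library for 80 members and below for 104, together 47.8% of the members against 55.9% of all genes tested. By range this share was 45.2% against 45.1% from 100 to 1000 counts, and 64.7% against 66.3% above 1000. The median absolute log2 ratio was 0.50 between the WT libraries, 0.47 between the KO libraries and 0.51 between the genotype means. The first and second of these compare single libraries and the third compares means of 2, so their sizes are given side by side only. By deposited type, among tested genes with at least 100 counts, 4.57% of 481 TEC genes and 7.98% of 351 lincRNA genes were called. The share was 9.24% of 184 processed_transcript genes and 19.8% of 11470 coding genes. The median summed count was 278, 305, 428.5 and 4622 in these 4 types, beside 263 for the members.

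**Figure D2:**
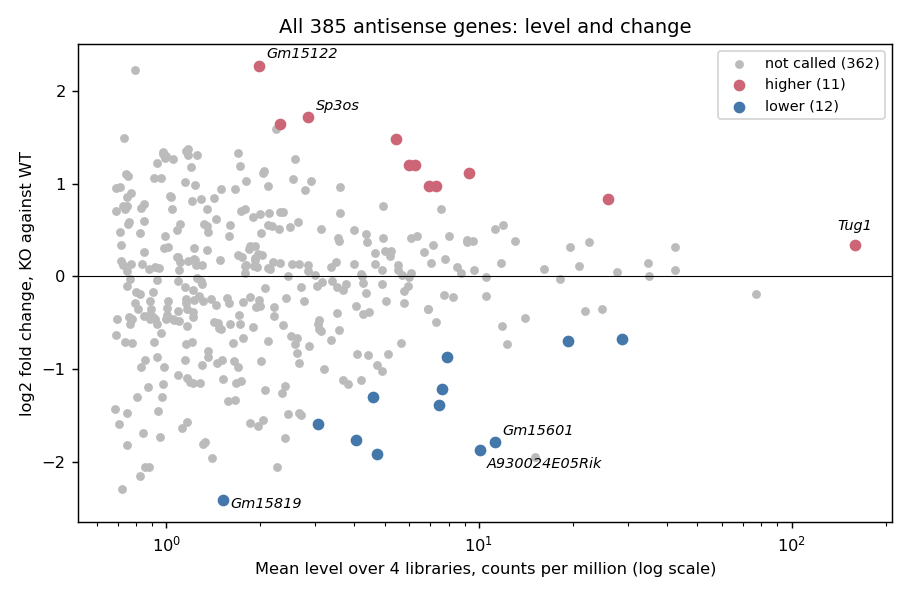
Log2 fold change of KO against WT for the 385 members against mean level, with called members marked. Called members lie between -2.41 and 2.27, and the spread of the others widens toward low levels.

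**Figure D3:**
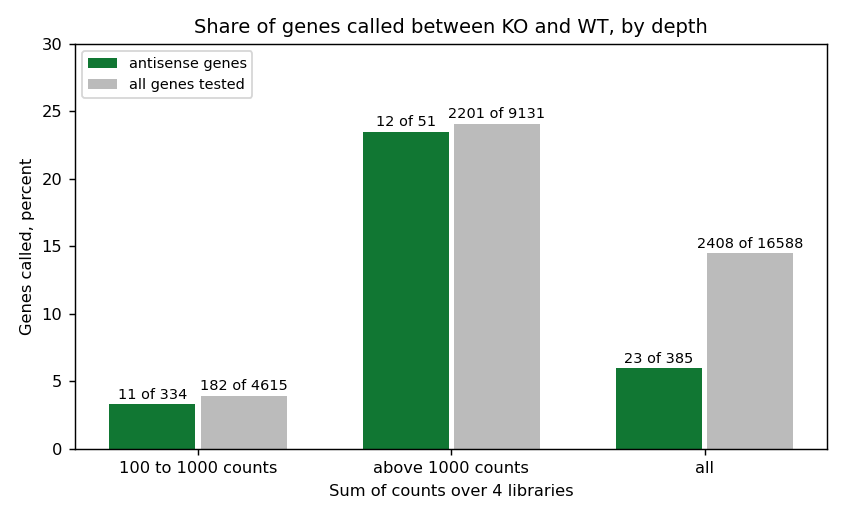
Percent of genes called at an adjusted p under 0.05 among the members and all tested genes, by range of summed counts and in all. Within a range the bars have similar heights (3.29 and 3.94%, 23.5 and 24.1%), and over all counts they differ (5.97 and 14.5%). Above 1000 counts the members had a lower median sum than all tested genes (1630 against 7158).

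An antisense gene at Kdm2b fell in KO while Kdm2b did not pass the test. A930024E05Rik (ENSMUSG00000056735.5, chr5:122989354-122998345, plus strand) starts within Kdm2b, near its start, on the other strand. Kdm2b encodes a histone demethylase that recruits a Polycomb complex to CpG islands. A930024E05Rik had 512 and 633 counts in WT and 184 and 133 in KO, so both KO libraries lay below both WT libraries. In CPM this was 15.8 ± 2.08 against 4.31 ± 0.888 (SD, n = 2), a log2 fold change of -1.87 (SE 0.27, edgeR adjusted p = 0.000643). Kdm2b was at -0.21 (adjusted p = 0.208), and the opposite gene with the largest overlap, Gm44574, was not tested.

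C130021I20Rik (ENSMUSG00000052951.5, chr2:33641193-33646354, plus strand) has no opposite gene in the annotation used and starts 682 bases from Lmx1b, a homeobox gene of limb and brain development. Its start window is printed above. It had 256 and 284 counts in WT and 81 and 64 in KO. Both KO libraries lay lower, at 1.97 ± 0.284 CPM against 7.46 ± 0.414 (SD, n = 2), a log2 fold change of -1.92 (SE 0.36, edgeR adjusted p = 0.00348). Gm15819 (chr5:63923901-63924970, plus strand), within Rell1, a receptor-like gene of the TNF receptor relatives, had the lowest fold change of the members. Its counts were 79 and 107 in WT and 13 and 22 in KO, and it fell by 2.41 on the log2 scale (SE 0.67, adjusted p = 0.0303), but without KO replicate 1 or WT replicate 2 the adjusted p was 0.0803 or 0.161. Rell1 stood at -0.26.

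At 2 loci the antisense gene and its coding partner fell together. Gm15601 (ENSMUSG00000085913.2, chr14:45563834-45598512, plus strand) lies opposite Ddhd1, a phospholipase gene. It had 757 and 502 counts in WT and 187 and 184 in KO, groups that do not overlap although the WT libraries spread widely. Its log2 fold change was -1.78 (SE 0.27, edgeR adjusted p = 0.000941), and Ddhd1 fell by 0.56 (adjusted p = 0.00256). Slain1os (ENSMUSG00000089707.1, chr14:103692983-103699442, minus strand), whose start window is printed above, lies opposite Slain1, a gene for a microtubule plus-end protein. Its counts were 377 and 403 in WT and 141 and 162 in KO, without overlap. It fell by 1.38 (SE 0.28, adjusted p = 0.00638) and Slain1 by 0.42 (adjusted p = 0.0122).

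5 of the others that fell had coding neighbours of varied roles. 1700052K11Rik (chr11:105177726-105181433, minus strand), opposite the chromatin assembly kinase gene Tlk2, had 380 and 393 counts in WT and 189 and 149 in KO (log2 fold change -1.21, SE 0.28, edgeR adjusted p = 0.012). E130307A14Rik (chr10:39621412-39732007, minus strand), opposite Traf3ip2, an adaptor of interleukin 17 receptor signalling, had 1298 and 1251 in WT and 788 and 832 in KO (-0.67, SE 0.15, adjusted p = 0.0107). In both the KO libraries lay below the WT libraries. Gm26982 (chr6:113714971-113716121, plus strand), which meets the ghrelin gene Ghrl by 3 bases, had 909 and 813 against 577 and 505 counts (-0.69, SE 0.18, adjusted p = 0.0251), and was not called without KO replicate 2 (0.0785) or WT replicate 1 (0.135). C78197, opposite the syntaxin gene Stx8, had 232 and 242 against 114 and 81 counts (-1.30, adjusted p = 0.0288, but 0.107 without KO replicate 2 and 0.0776 without WT replicate 2). In both of these too the groups did not overlap. Gm19582, opposite the diacylglycerol kinase gene Dgkd, had 168 and 165 against 68 and 44 counts (-1.59, adjusted p = 0.0325), and lost the call without KO replicate 2 (0.103), WT replicate 1 (0.0692) or WT replicate 2 (0.0708).

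Gm29361 (chr12:83631834-83633833, minus strand) was the single called member whose partner was called the other way. The partner is Rbm25, which encodes a splicing regulator with an RNA recognition motif. Gm29361 had 365 and 374 counts in WT and 209 and 200 in KO, with WT higher in both libraries, and fell by 0.87 (SE 0.27, edgeR adjusted p = 0.0461), while Rbm25 rose by 0.37 (adjusted p = 0.00695). Leaving out any 1 library ended the call of Gm29361, with adjusted p from 0.107 to 0.128.

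Among the members that rose, Tug1 was the most abundant and Gm15122 had the highest fold change. Tug1 (ENSMUSG00000056579.18, chr11:3639785-3649673, minus strand) is a conserved long noncoding RNA that starts just inside Morc2a, a chromatin silencing gene, on the other strand. It had 5156 and 5057 counts in WT and 6624 and 6507 in KO. The groups did not overlap, at 141 ± 4.46 and 179 ± 1.69 CPM (SD, n = 2), which adds no support to a call from the same libraries. The log2 fold change was 0.34 (SE 0.08, edgeR adjusted p = 0.0112). Without WT replicate 2 it was 0.32 and the call was lost. limma on log2 RPKM did not call Tug1 (adjusted p = 0.0736 and 0.0707 with pseudocounts of 0.1 and 0.5). Morc2a stood at -0.07. Gm15122 (ENSMUSG00000087672.1, chr10:80282444-80283006, minus strand), within the RNA-binding protein gene Dazap1, had 23 and 26 counts in WT and 113 and 127 in KO, with no overlap. It rose by 2.27 (SE 0.56, adjusted p = 0.017), beside -0.05 for Dazap1.

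The other members that rose had far fewer counts than Tug1. 5830418P13Rik (chr9:103423578-103461260, plus strand), opposite the lens filament gene Bfsp2, had 776 and 572 counts in WT and 1344 and 1096 in KO, all KO values above WT (log2 fold change 0.83, SE 0.19, edgeR adjusted p = 0.0115). Fbxl12os (chr9:20607458-20617271, plus strand), named for a nearby F-box gene, had 86 and 122 against 278 and 308 counts (1.48, SE 0.34, adjusted p = 0.0119). Sp3os (chr2:72979424-72988677, plus strand), named for the zinc finger factor gene Sp3, had 45 and 51 against 142 and 178 (1.72, SE 0.46, adjusted p = 0.025, and 0.101 without KO replicate 2). All 3 were higher in both KO libraries than in either WT library. Phf2os1 (chr13:48871112-48875460, plus strand) starts 7 bases from Phf2, a histone demethylase gene. It had 176 and 179 against 366 and 342 counts, rising by 0.98 (SE 0.28, adjusted p = 0.0342) beside -0.01 for Phf2, and without any 1 library its adjusted p was 0.0623 to 0.108.

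5 more members rose, and each lost its call without at least 1 library. Gm47071, opposite the histone variant gene H2afy, had 267 and 156 counts in WT and 428 and 500 in KO (log2 fold change 1.11, edgeR adjusted p = 0.0271), and was not called without KO replicate 2 (0.0628) or WT replicate 2 (0.119). 2810001G20Rik, which starts 16 bases from the haem A synthesis gene Cox10, had 145 and 118 against 359 and 255 (1.20, adjusted p = 0.0282, but 0.171 without KO replicate 1 and 0.0813 without WT replicate 2). In both, the KO libraries were higher. Gm15247, opposite the midline ubiquitin ligase gene Mid1 on the X chromosome, rested on KO replicate 1: its counts were 146 and 128 in WT and 433 and 207 in KO (1.20, adjusted p = 0.0485), and without that library the log2 fold change was 0.60 (adjusted p = 0.484), and without WT replicate 2 the adjusted p was 0.0637. Gm45606, opposite the amino acid transporter gene Slc43a2, had 160 and 178 against 341 and 332 counts (0.97, adjusted p = 0.039), and Galnt6os, opposite the glycosyltransferase gene Galnt6, had 32 and 49 against 125 and 131 (1.64, adjusted p = 0.0498). Leaving out any 1 library ended the calls of Gm45606 (0.0636 to 0.103) and of Galnt6os (0.0512 to 0.158). Their partners were called in the same direction, Slc43a2 at 0.30 and Galnt6 at 0.49, and so was H2afy at 0.26 (adjusted p = 0.0352).

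By position of their exon bases, drawn for the called members as stacked bars, the calls were spread over all classes. Of 227 with at least 50% of their exon bases in opposite introns, 4 rose and 8 fell (5.29%, median log2 fold change -0.09). Of 106 with at least 50% outside any opposite gene, 5 rose and 3 fell (7.55%, median 0.01). Among the other 52, 2 rose and 1 fell (5.77%, median 0.14). The 113 members that share no exon base with an opposite exon held 3 calls (2.65%), and the 272 that share some held 20 (7.35%). The share was 5.97% over all members and 14.5% over all genes tested. No test was made of these differences. A start within 1000 bases of an opposite coding start was found in 119 members, of which 3 rose and 3 fell (5.04%). Of the other 266 members 6.39% were called.

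**Figure D4:**
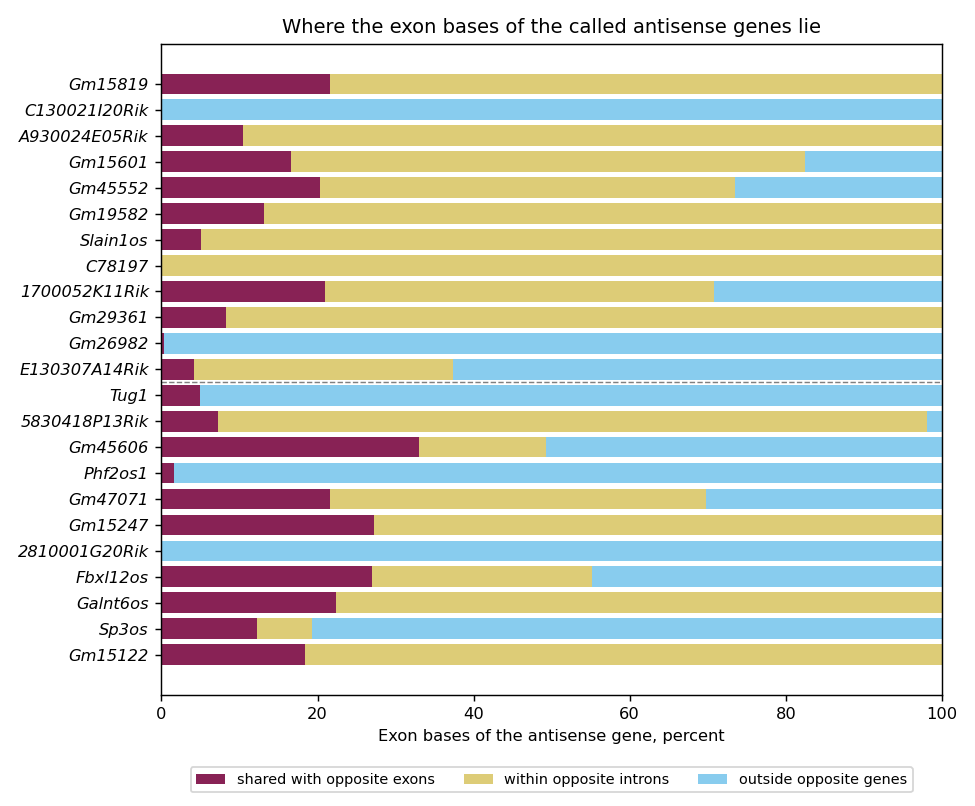
Exon bases of the 23 called members by position, as percent of each gene's exon bases: shared with exons of the opposite strand, within opposite introns, and outside opposite genes, with genes that fell above the dashed line and genes that rose below it. C130021I20Rik and 2810001G20Rik lie wholly outside opposite genes, and 12 of the 23 have at least 50% in opposite introns.

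Of the members highest in RPKM, Gm26982, Tug1, Gm15247 and Phf2os1 were called, as given above, and the other 6 were not. Gm44686 (chr7:73538013-73554801, plus strand) had 659 and 666 counts in WT and 619 and 695 in KO, groups that overlap (log2 fold change -0.03, SE 0.19, edgeR adjusted p = 0.955). Chd2, which it overlaps on the other strand, was at -0.285 (adjusted p = 0.0218). Gm48719 (chr9:44999429-45002985, plus strand), within Cd3e, had 193 and 241 against 233 and 205 counts (-0.00498, SE 0.31, adjusted p = 0.995), also with overlap, and Cd3e was at 0.23 (adjusted p = 0.0815). Gm17201 (chr10:128391842-128395563, minus strand) had 269 and 360 against 284 and 365 counts (0.03, SE 0.27, adjusted p = 0.968), while Ankrd52, an ankyrin repeat gene, fell by 0.27 (adjusted p = 0.036). Gm28529 lay opposite Epc1, which passed the test too and rose by 0.33 (adjusted p = 0.0133). Gm28529 had 638 and 624 counts in WT and 926 and 665 in KO (0.31, SE 0.20, adjusted p = 0.350). Both KO libraries lay above WT, with KO replicate 1 the highest. Gm47827, opposite the lysosomal amino acid transporter gene Slc38a9, had 195 and 262 against 197 and 183 counts (-0.28, SE 0.32, adjusted p = 0.657).

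Members and partners moved together only loosely. Over 354 members with a tested partner, the log2 fold changes had a Pearson correlation of 0.19 and a Spearman correlation of 0.23 across genes. Genes are not independent replicates, and without strand, intron reads of a partner can be counted for the member. The Pearson correlation with the partner was 0.21 for members of the class with exon bases mainly in opposite introns (n = 217). With the gene of the nearest opposite coding start within 1000 bases, which need not be the partner, it was 0.06 (n = 114). Where the partner rose (38 members) the median member was at 0.30, where it fell (50) at -0.45, and where it was not called (266) at -0.09. Of the 23 called members, 14 had a partner that was not called, 5 a partner called the same way and 1 a partner called the other way. For 1 the partner was not tested and 2 had no opposite gene.

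**Figure D5:**
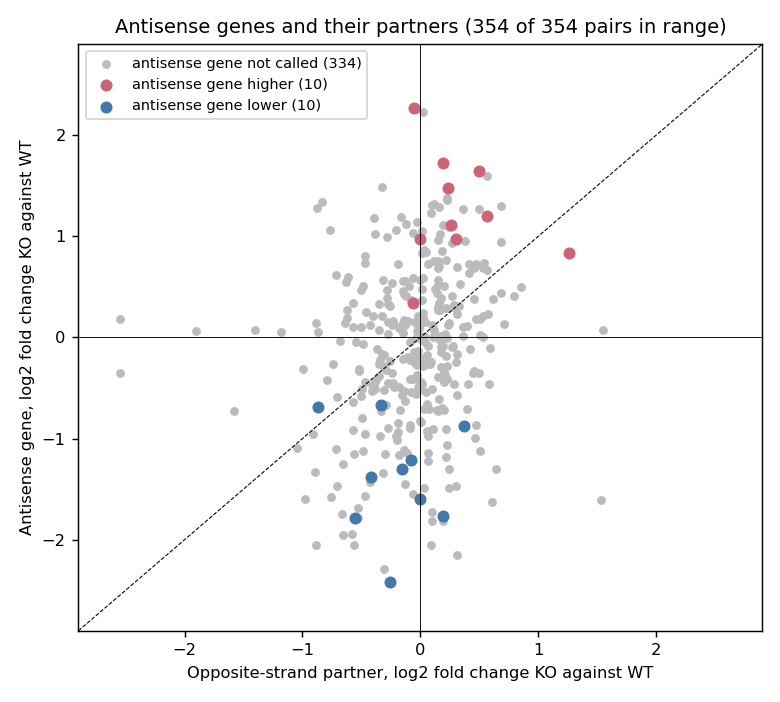
Log2 fold change (KO against WT) of 354 members against that of their main opposite-strand partner, with called members coloured and a dashed line where both are equal. The points scatter widely around a weak positive relation (Pearson correlation 0.19).

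Whether a member changed by a different amount than a partner was tested on the log2 ratio of the pair with limma, over 2897 pairs of tested genes on opposite strands. Of 445 pairs that hold a member, 7 were called (1.57%, against 3.49% of all pairs). In 6 the member fell relative to the partner, and in Gm15122 and Dazap1 it rose by 2.24 (SE 0.60, limma adjusted p = 0.0494). A930024E05Rik fell by 1.66 relative to Kdm2b (SE 0.31, adjusted p = 0.0066), and this call was kept without each library. Gm29361 fell by 1.23 relative to Rbm25 (adjusted p = 0.0315, and 0.0864 or 0.0544 without WT replicate 1 or 2), and Gm15601 by 1.18 relative to Ddhd1 (0.0365, and 0.311 without WT replicate 1). The pair of Gm15122 was called only without WT replicate 2 among the 4 leave-one-out fits, with adjusted p of 0.0585 to 0.167 in the other 3.

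2 pairs were called by the ratio although neither gene was. Gt(ROSA)26Sor, the noncoding gene at the Rosa26 locus used for transgene insertion, had 945 and 1066 counts in WT and 745 and 845 in KO (log2 fold change -0.36, edgeR adjusted p = 0.193), and Thumpd3, a tRNA methyltransferase gene, was at 0.44 (adjusted p = 0.103). The ratio differed by -0.80 (SE 0.20, limma adjusted p = 0.0339), but not without KO replicate 1 (0.138) or WT replicate 1 (0.0883). B130046B21Rik and the dendrite gene Ddn, both under 3 CPM in every library, differed by -3.67 (SE 0.95, adjusted p = 0.044, and 0.414 without WT replicate 2).

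A list of antisense genes with a described role or name was looked up, and few of those found had many counts. Of 34 names on that list, 17 were found among the antisense genes, of which 3 reached 100 counts and 7 had none. The remaining names were not looked up under other gene types, and the list does not hold Tug1, Gt(ROSA)26Sor or Nron. Kcnq1ot1, which silences imprinted genes in cis, had 1413 and 1329 counts in WT and 1662 and 1795 in KO. The KO libraries were higher, at 47.2 ± 3.61 CPM against 37.9 ± 2.32 (SD, n = 2), but the difference did not pass the test (log2 fold change 0.32, edgeR adjusted p = 0.131). Airn, antisense to the imprinted Igf2r, had 323 and 253 against 357 and 399 counts (0.37, adjusted p = 0.410), beside -0.08 for Igf2r, and Dlx1as had 31 and 22 against 46 and 76 (1.18, adjusted p = 0.331). Tsix, the antisense partner of Xist, had 10 counts in all. Nron, which restrains nuclear entry of the factor NFAT, had 405 and 267 counts in WT and 514 and 459 in KO (0.51, adjusted p = 0.234), while the overlapping Mvb12b fell by 0.48 (adjusted p = 0.0013).

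Genes that act on antisense and other short-lived nuclear RNA changed in both directions. Of 37 tested genes of nuclear exosome targeting, Integrator and RNA-DNA hybrid removal, 6 rose and 4 fell in KO, and their median log2 fold change was 0.09. All 37 had above 1000 counts, a range in which 24.1% of all tested genes were called. Nrde2, which restrains the nuclear exosome, fell by 0.78 (edgeR adjusted p = 0.000357), and Rbm7, an RNA-binding part of the nuclear exosome targeting complex, fell by 0.49 (adjusted p = 0.00252). The exosome helicase gene Mtrex fell by 0.53 and Rnaseh1, whose product cuts RNA in RNA-DNA hybrids, by 0.61. Zfc3h1, a scaffold of the poly(A) tail exosome targeting connection, rose by 0.58 (adjusted p = 0.000754), and Srrt, Ncbp2, Ints11 and Rnaseh2a rose by 0.37 to 0.75.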

How the data were processed

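Total RNA of 2 WT and 2 KO samples was sequenced, grouped by labelled genotype. Deposited by the authors were counts per gene and library and an RPKM table with gene types and lengths in bases. Each RPKM value in the deposited table is the count over gene length and library total, within a relative tolerance of 1e-06. Per the submitters' processing notes the tools were FastQC 0.11.5, cutadapt 1.17, STAR 2.6.0a, HTSeq 0.6.1 and DESeq2 1.24.0 with GRCm38 (mm10). No source used here gives the strand setting or the annotation release. Coordinates, strands and exon overlaps came from GENCODE M21 (GRCm38), whose gene model matched the deposited version for 381 of 385 members. Names are those of GENCODE M21, which differ from the deposited symbol for 342 members.

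Deposited counts of all 16588 genes that passed filterByExpr were tested with edgeR 4.0.16 (quasi-likelihood, TMM factors 0.993 to 1.01, genotype as the only term) in R 4.3.3. Two-sided p-values received the Benjamini-Hochberg adjustment across the whole table, and a call is an adjusted value under 0.05. Fold changes are on the log2 scale, KO against WT. Pairs were tested with limma 3.58.1 on log2 CPM with a prior count of 2. With 2 libraries against 2, an exact permutation test cannot go below 0.333, so none is given. Scripts were tested on simulated data. Alternatives were other scaling factors, filters, DESeq2 1.42.0, limma-voom, log2 RPKM with a pseudocount of 0.5 or 0.1, other count minimums, a replicate block and leaving out each library.

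Members and lists were chosen with earlier results of these data known. Named were Srsf1, the 10 members highest in RPKM, the 10 highest and 10 lowest fold changes among called members with both KO libraries on one side of WT, members in a list of described antisense genes, the partners of all these, and the 3 turnover genes with the smallest adjusted p. E130307A14Rik, Nron, B130046B21Rik, BC018473, Dgkeos and the other turnover genes named were chosen after their values were seen. Replicate libraries differed by more than sampling noise (chi-square per degree of freedom 16.7 for WT and 19.0 for KO). Some genes that meet these rules are counted but not described here.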

Additional observations from a re-analysis of the deposited data

How the results depend on the processing

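Of the 23 calls, 10 were kept in every fit that left out 1 library, 4 (Phf2os1, Gm29361, Gm45606 and Galnt6os) in none of those, and 3 (A930024E05Rik and Gm15122 among them) in every setting tried. Leaving out 1 library gave 5 to 12 members higher, 12 to 18 lower, a median log2 fold change of -0.133 to -0.0084 and 9 to 16 called pairs. limma on log2 RPKM with a pseudocount of 0.1 called 3 higher and 7 lower (2.6% of the members against 5.7% of all genes tested). A pseudocount of 0.5 gave 3 and 5 (2.08% against 5.67%). A replicate block in edgeR gave 11 higher and 20 lower (8.05% of the members against 16.9% of all genes tested). The block gave 15 called pairs in limma, though equal replicate numbers did not deviate together (correlation -0.0391). Among members that share no exon base with an opposite exon, 1 was higher and 2 lower with a median of 0.0707. Of 146 pairs whose 2 genes share no exon base with each other, limma called 0. A prior count of 0.5 gave 3 called pairs. DESeq2 called 11 higher and 15 lower (6.75% of the members against 23.7% of all genes tested). limma-voom called 9 and 13 (5.71% against 16%). With a minimum of 400 counts, 15.6% of 128 genes were called, beside 14.5% of all genes tested, which had no such minimum. Among genes that were not called, the direction of Gm48719 turned with upper-quartile factors (0.0064), and leaving out 1 library gave -0.14 to 0.15 for Gm48719, -0.13 to 0.0801 for Gm44686 and -0.18 to 0.24 for Gm17201. The causes were not tested. Depth limits the precision of most members, whose median sum was 263 counts over 4 libraries.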

Other observations

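BC018473 (chr11:116752167-116759373, plus strand), a member with no opposite gene, was high in 1 library of each genotype, with counts of 1902 and 40 for WT and of 16 and 2010 for KO. Its neighbours split the libraries in the same way: St6galnac1, a sialyltransferase gene, had 192 and 0 counts in WT and 0 and 270 in KO, and Gm11735 had 110 and 0 against 0 and 136. Dgkeos, antisense to the diacylglycerol kinase gene Dgke, had 1411 and 312 counts in WT and 263 and 194 in KO, and Dgke 17285 and 10965 against 10911 and 8377. WT replicate 1 was the highest library for both genes. Dgke (chr11:89035179-89066850) lies on the chromosome of the targeted Srsf1 (chr11:88047373-88053755), and whether this position matters was not tested.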
